A study of Solanum lycopersicum with 16 samples.

Results

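SlIDD3 (IDD3 in the data sheet, Solyc09g074780) and SlIDD15 (IDD15, Solyc09g065670) are a pair of tomato transcription factor genes that the study placed in one phylogenetic branch. They were taken by name from the assay list and are 2 of the 22 target genes measured. RefSeq lists them as LOC101259784 and LOC101266449, both on chromosome 9. Roots and shoots of 3-week-old plants of the cultivar M82 were collected 2 h and 24 h after treatment, and transcripts were measured by SYBR Green qRT-PCR. Control plants had their potting medium saturated with water of the same pH as the salt and flood water. Salt plants received water with 200 mM NaCl, low pH plants received water at pH 4.2, and flood plants stood with their roots submerged. This gave 16 groups of tissue, treatment and time, with up to 4 wells per gene and group. No transgene is stated. The paper calls the plants wild-type, but it also names M82 among the mutants of obv (SlIDD5), a genotype that all groups share. All 3 stresses share the same control wells. No marker of roots or shoots is among the targets, so the tissue labels could not be checked, and a change in such whole organs can be fewer cells of a type or less RNA per cell, which cannot be told apart.

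The INDETERMINATE DOMAIN (IDD) genes encode zinc finger transcription factors found only in plants. The family is named after maize INDETERMINATE1, which controls the switch to flowering. Its best known members in Arabidopsis act with SHORT-ROOT and SCARECROW in the patterning of root tissues, and others serve as partners of DELLA proteins in gibberellin signalling. In the phylogeny of the study SlIDD3 and SlIDD15 sit beside Arabidopsis AtIDD12, whose function is not known.

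Each value is a Ct, the PCR cycle at which the signal crosses the threshold, so a lower Ct is more transcript and 1 cycle is 1 unit on the log2 scale at perfect amplification. The sheet holds 1536 wells, of which 1425 have a value, between 13.65 and 32.65 cycles. SlIDD3 has a value in 60 of its 64 wells and SlIDD15 in 61 of 64. Level here means the mean Ct of ubiquitin on the same plate minus the Ct of the gene, in log2 units. SlIDD3 lies on the first plate and SlIDD15 on the second, and each plate has its own ubiquitin wells, 2 to 4 per group. Wells cannot be tied to plants, and the methods count technical replicates, so every p below is too low if several wells come from one plant. Where the 2 plates' ubiquitin disagree, the value of a gene depends on which wells are used. The value with the other plate's ubiquitin, a setting chosen after seeing the data, is given where it ends or makes a call, or turns the sign of a called value or moves it by over 1.5 times.

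Over the 16 groups the mean level of SlIDD3 ran from -7.66 to -3.24, a span of 4.42 log2 units. It was highest in low pH shoots at 24 h, followed by flood roots at 24 h (-3.93 ± 0.11, SD, n = 4) and flood shoots at 24 h (-4.68 ± 0.14, n = 4). It was lowest in salt shoots at 2 h (-7.66 ± 0.88, n = 4), control roots at 2 h (-6.93 ± 0.49, n = 4) and salt shoots at 24 h (-6.79 ± 0.45, n = 3). Of the 15 pairs of neighbours in this order, 13 overlapped in their wells, and only the top groups stood clear. SlIDD15 had a span of 5.09. Control shoots were at the bottom at both times, with -8.36 ± 1.31 (n = 3) at 2 h and -6.77 ± 0.07 (n = 4) at 24 h. The other 14 groups lay between -4.96 in salt roots at 2 h and -3.27 in salt shoots at 24 h, and each of them overlapped its neighbour in the order.

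**Figure D1:**
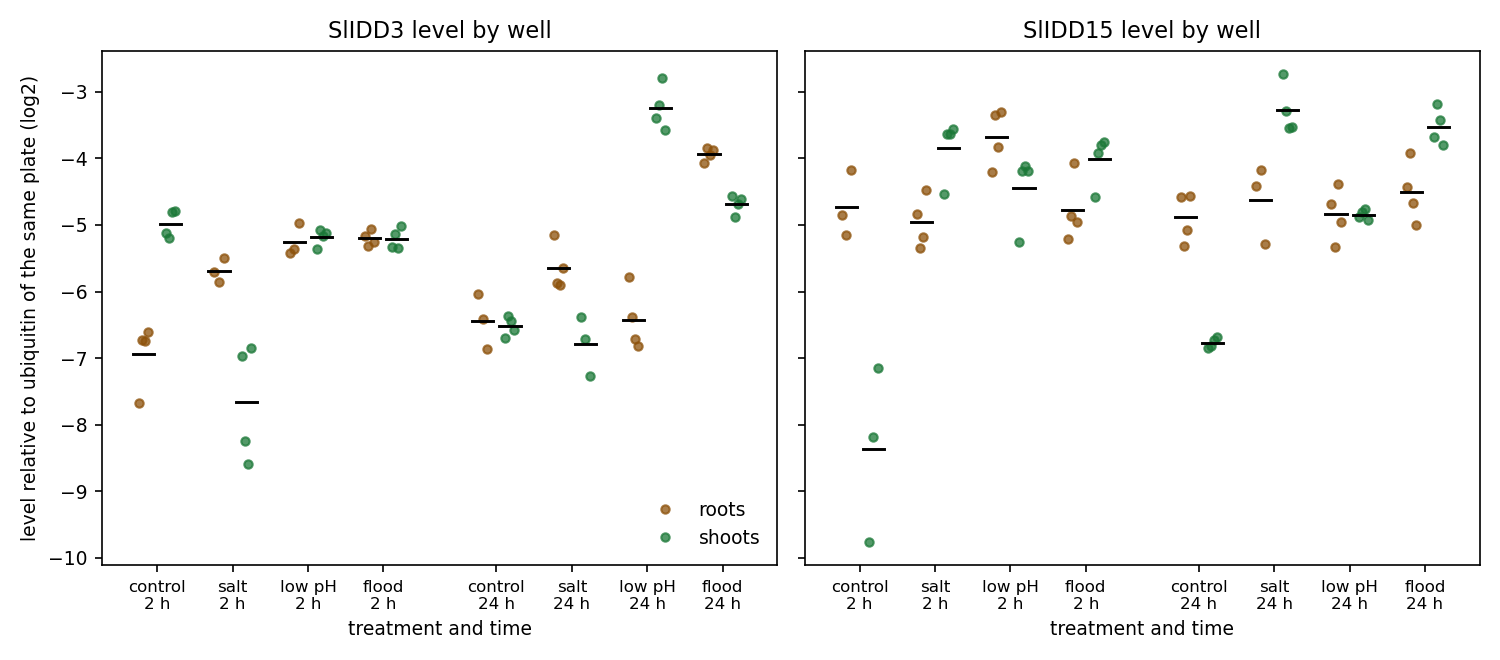
Level of SlIDD3 (left) and SlIDD15 (right) in every well, as log2 relative to ubiquitin of the same plate, against treatment and time. Points are wells (3 or 4 per group, brown roots, green shoots) and bars are group means. Control shoots are the lowest groups of SlIDD15 at both times, and salt shoots at 2 h the lowest group of SlIDD3.

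SlIDD3 rose in roots at 2 h under all 3 stresses. Its control root wells had Ct values of 24.17, 23.23, 23.24 and 23.11. The salt root wells had 20.81, 20.98 and 20.61, the low pH root wells 19.97, 19.91 and 19.53, and the flood root wells 20.32, 20.47, 20.21 and 20.40. No stressed well overlapped a control well. Ubiquitin on this plate also came up earlier in every stressed root group at 2 h, by 1.35 to 1.95 cycles, so the change relative to ubiquitin was smaller than the change in Ct. Relative to ubiquitin SlIDD3 was 2.37-fold higher under salt (log2 fold change 1.25 with a standard error, SE, of 0.41, and an adjusted p of 0.0235 in limma), 3.20-fold under low pH (1.68 with SE 0.43, adjusted p = 0.00531) and 3.32-fold under flood (1.73 with SE 0.39, adjusted p = 0.000843). The shares of targets that passed in these comparisons, in either direction, were 36.4% under salt, 63.6% under low pH and 40.9% under flood. The median target stood at -0.15, 1.18 and 0.09. With the second plate's ubiquitin SlIDD3 under low pH stood at 5.04 (adjusted p = 2.24e-05), and its call was lost without the third well row (1.73) or with the well row as a block (1.70, adjusted p = 0.0599). The call under salt was lost whichever of the 4 well rows was left out (log2 fold change 1.04 to 1.41).

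At 24 h SlIDD3 in roots rose under flood and salt and did not pass under low pH. The control root wells had 23.75, 24.13 and 24.58. The flood root wells had 19.42, 19.18, 19.30 and 19.21, the salt root wells 20.69, 21.41, 21.45 and 21.19, and the low pH root wells 19.52, 20.13, 20.45 and 20.57. In Ct the 3 stresses lay well apart from the control. Relative to ubiquitin SlIDD3 was 5.67-fold higher under flood (log2 fold change 2.50 with SE 0.27, adjusted p = 5.13e-06), rank 3 of the 22 targets from the highest down, where 40.9% of targets passed and the median was 0.28. Under salt it was 1.74-fold higher (0.80 with SE 0.31, adjusted p = 0.0438), where 59.1% passed and the median was 0.50, and only 1 of 4 fits with a well row left out kept the call, which the well row as a block also ended (0.91, adjusted p = 0.0787). With the second plate's ubiquitin SlIDD3 stood at 4.07 under flood (adjusted p = 1.03e-07) and 2.19 under salt (adjusted p = 7.77e-05). Under low pH it was 1.01-fold of control (0.01, 95% interval -0.73 to 0.76, adjusted p = 0.965), against 63.6% of targets called and a median of 0.03. In that comparison ubiquitin came up 3.97 cycles earlier on the first plate but only 0.09 earlier on the second, and with the second plate's ubiquitin SlIDD3 stood at 3.89 (adjusted p = 1.45e-06).

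In shoots at 2 h SlIDD3 fell under salt, and the other stresses did not pass. The control shoot wells had 20.78, 20.85, 20.46 and 20.45. The salt shoot wells had 22.81, 24.09, 24.43 and 22.69, all above every control well. The low pH shoot wells had 20.32, 20.03, 20.11 and 20.07, and the flood shoot wells 21.04, 20.85, 21.07 and 20.74. Low pH lay just below the control, and flood overlapped it. Under salt SlIDD3 fell 6.41-fold (-2.68 with SE 0.53, adjusted p = 0.000799), rank 21 of 22, where 31.8% of targets passed and the median was 0.36. The fall was -3.27 with the second plate's ubiquitin and passed in all 4 fits with a well row left out (-3.14 to -2.26). Under low pH the difference was -0.20 (95% interval -1.17 to 0.77, adjusted p = 0.842; 40% of 20 targets passed, median 0.61). Under flood it was -0.23 (95% interval -1.03 to 0.58, adjusted p = 0.642; 63.6% passed, median 1.25). The low pH value turned to 1.80 (adjusted p = 0.000721) with ubiquitin of the second plate, which came up 1.30 cycles later there while that of the first plate came up 0.70 earlier.

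At 24 h the salt and the other stresses still parted in shoots. The control shoot wells of SlIDD3 had 21.15, 20.82, 20.89 and 21.02, and the salt shoot wells 22.79, 23.13 and 23.68. The low pH shoot wells had 19.07, 18.88, 18.47 and 19.25, and the flood shoot wells 19.76, 20.07, 19.88 and 19.80. All 3 stressed groups were clear of the control in Ct, salt above it and the others below. SlIDD3 was 9.74-fold higher under low pH (log2 fold change 3.28 with SE 0.32, adjusted p = 2.88e-08) and 3.58-fold higher under flood (1.84 with SE 0.28, adjusted p = 5.30e-05). These rises came where most targets rose: 95% passed under low pH (median 2.18) and 95.5% under flood (median 2.43), and SlIDD3 ranked 5 of 20 under low pH and 15 of 22 under flood. Under salt the value was -0.27 (95% interval -0.98 to 0.45, adjusted p = 0.467), while 90.9% of targets passed and the median target stood at 1.53. All 3 values rest on the same 2 control ubiquitin wells. In plain Ct SlIDD3 came up 2.05 cycles earlier under low pH and 1.10 earlier under flood. The salt value was -1.26 (adjusted p = 0.00538) with ubiquitin of both plates and -1.95 (adjusted p = 2.21e-05) with that of the second. The flood value was 1.17 (adjusted p = 0.000397) with ubiquitin of the second plate. Set against the mean of all targets of the plate in place of ubiquitin, SlIDD3 in flood shoots turned to -0.79 (adjusted p = 0.000288) and in low pH shoots stood at 0.16 (adjusted p = 0.511).

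SlIDD15 rose in shoots under every stress at both times. At 2 h its control shoot wells had 25.65, 24.08 and 23.04. The salt shoot wells had 20.04, 19.14, 19.13 and 19.06, the low pH shoot wells 22.46, 21.40, 21.32 and 21.39, and the flood shoot wells 20.59, 19.93, 19.81 and 19.77. All stressed wells lay below all control wells, and the 3 control wells had the widest spread of any group of either gene (SD 1.31 cycles). SlIDD15 was 22.9-fold higher under salt (log2 fold change 4.52 with SE 0.66, adjusted p = 0.000394), 15.1-fold under low pH (3.92 with SE 0.64, adjusted p = 5.15e-05) and 20.3-fold under flood (4.34 with SE 0.60, adjusted p = 2.92e-05). In the same order 31.8%, 40% and 63.6% of targets passed, with medians of 0.36, 0.61 and 1.25. SlIDD15 stayed past the threshold in all 4 fits with a well row left out (3.34 to 4.89). With ubiquitin of the first plate the low pH value was 1.92 (adjusted p = 0.0113). Each target set against ubiquitin of its own plate, SlIDD15 ranked 1 in all 3 comparisons, but under low pH the rank rests on the plates' separate references: SlIDD11, on the first plate, stood at 3.28 with the same first-plate ubiquitin, above SlIDD15.

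At 24 h the control shoot wells of SlIDD15 had 22.89, 22.86, 22.78 and 22.74. The salt shoot wells had 19.06, 19.62, 19.87 and 19.85, the low pH shoot wells 21.71, 21.64, 21.58 and 21.76, and the flood shoot wells 19.81, 19.30, 19.55 and 19.93. The groups were tight and did not overlap the control. SlIDD15 was 11.3-fold higher under salt (log2 fold change 3.50 with SE 0.31, adjusted p = 1.26e-08), 3.80-fold under low pH (1.92 with SE 0.27, adjusted p = 4.13e-06) and 9.49-fold under flood (3.25 with SE 0.26, adjusted p = 2.14e-08). It ranked 2 of 22 targets under salt, 13 of 20 under low pH, and 6 of 22 under flood, beside medians of 1.53, 2.18 and 2.43. In the same order 90.9%, 95% and 95.5% of targets passed. The salt and flood values were 5.18 and 3.92 with ubiquitin of the first plate, and the low pH value 2.37.

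SlIDD15 in roots passed in none of the 6 comparisons by limma, with unadjusted p between 0.126 and 0.919. Of all targets 36.4% to 63.6% passed in a root comparison. At 2 h the control root wells had 20.93, 21.23 and 20.26. The salt root wells had 19.38, 19.89, 19.72 and 19.02, the low pH root wells 21.69, 20.84, 21.32 and 20.78, and the flood root wells 20.41, 20.06, 19.26 and 20.14. Only the salt wells were clear of the control, and ubiquitin on the same plate came up 1.54 cycles earlier with them. The log2 fold changes were -0.23 under salt (95% interval -1.13 to 0.67), 1.05 under low pH (-0.34 to 2.44) and -0.05 under flood (-1.005 to 0.91). In low pH roots 1 of the 4 ubiquitin wells read 18.94, against 16.77 to 17.23 in the others. With ubiquitin of the first plate the low pH value was -2.31 (adjusted p = 0.000431).

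At 24 h the control root wells of SlIDD15 had 20.61, 21.35, 21.11 and 20.59. The salt root wells had 19.66, 19.42 and 20.53, the low pH root wells 20.62, 21.26, 20.31 and 20.89, and the flood root wells 19.65, 19.14, 19.89 and 20.23. Low pH overlapped the control, and salt and flood lay about 1 cycle below it. The log2 fold changes were 0.26 under salt (95% interval -0.53 to 1.06), 0.05 under low pH (-0.58 to 0.68) and 0.38 under flood (-0.31 to 1.07). With ubiquitin of the first plate all 3 were negative and passed (-1.13, -3.83 and -1.18). Set against the mean of all targets of its plate, SlIDD15 in roots was negative and passed in all 6 comparisons (-1.62 to -0.82). No direction can therefore be given for SlIDD15 in roots.

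**Figure D2:**
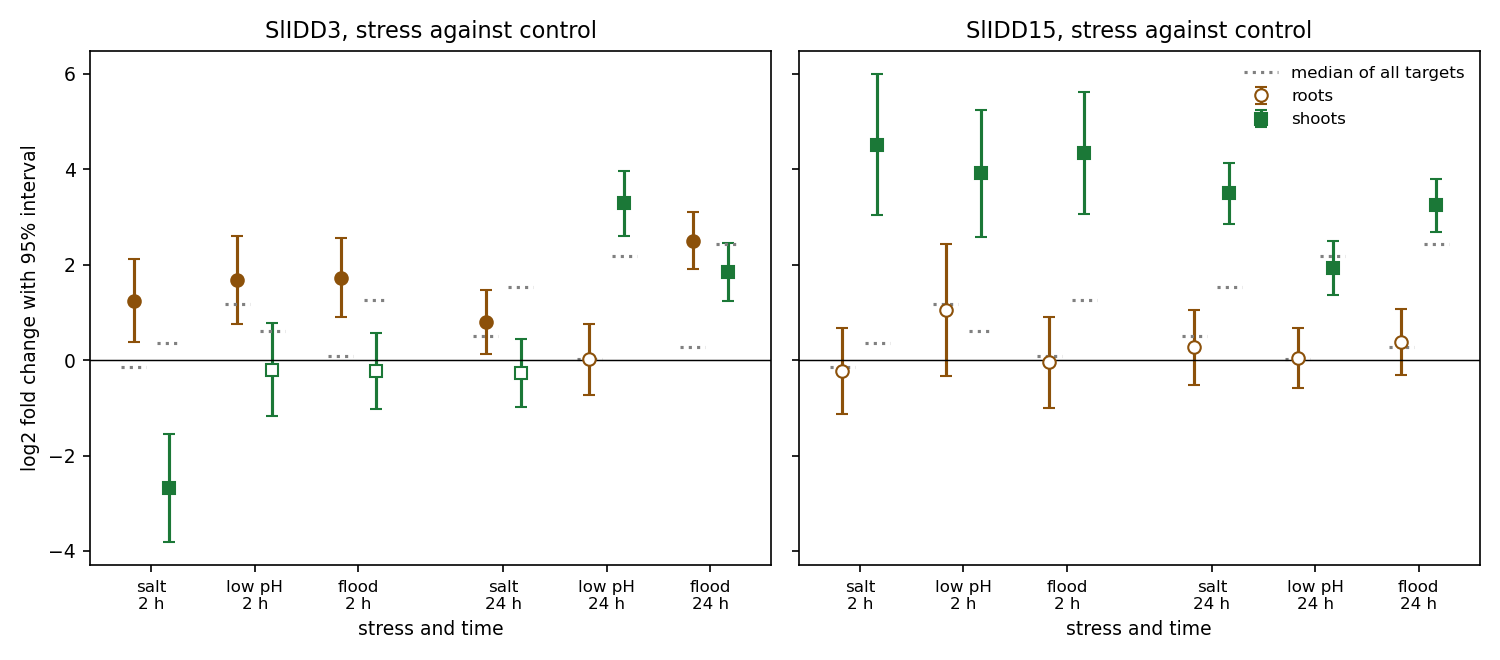
Log2 fold change against control of the same tissue and time, with its 95% interval, for SlIDD3 (left) and SlIDD15 (right); brown circles are roots, green squares shoots, filled symbols passed an adjusted p of 0.05, and dotted bars mark the median of all targets. SlIDD15 passed in all 6 shoot comparisons and in 0 of 6 root comparisons. SlIDD3 passed in 5 of 6 root comparisons, fell in salt shoots at 2 h and rose in low pH and flood shoots at 24 h. Of all targets 31.8% to 95.5% passed in a comparison.

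Whether a response differed between tissues was tested directly, as the change in roots minus the change in shoots. For SlIDD15 this was negative in all 6 comparisons and passed in each. At 2 h it was -4.75 under salt (standard error 0.81, adjusted p = 3.50e-05), rank 22 of 22, -2.87 under low pH (0.95, adjusted p = 0.0176) and -4.39 under flood (0.80, adjusted p = 3.63e-05). At 24 h it was -3.23, -1.88 and -2.87 in the same order (adjusted p from 9.99e-07 to 0.000143), and -6.31, -6.20 and -5.10 with ubiquitin of the first plate. For SlIDD3 the sign at 2 h was the opposite: 3.93 under salt (0.70, adjusted p = 3.36e-05), 1.88 under low pH (0.63, adjusted p = 0.0176) and 1.96 under flood (0.56, adjusted p = 0.00311). The share of targets whose response differed between tissues at 2 h was 40.9% under salt, 40% under low pH and 63.6% under flood. Leaving out the first or the third well row ended the call of both genes under low pH (1.73 and 1.76 for SlIDD3, -2.96 and -2.86 for SlIDD15). With the other plate's ubiquitin the low pH values were 3.24 for SlIDD3 and -4.23 for SlIDD15.

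At 24 h the difference between tissues for SlIDD3 depended on the reference wells. Under salt it was 1.06 (standard error 0.46, adjusted p = 0.0398), passed in 1 of 4 fits with a well row left out, did not pass with the well row as a block (0.88, adjusted p = 0.0995) and was 4.14 (adjusted p = 1.19e-08) with the second plate's ubiquitin. Under flood it was 0.66 (95% interval -0.18 to 1.502, adjusted p = 0.127), but it passed at 1.82 with ubiquitin of both plates, 2.89 with that of the second plate, 3.78 with no reference gene and 3.65 against the mean of all targets. Under low pH it was -3.27 (standard error 0.45, adjusted p = 1.29e-07). The shares of targets that passed were 72.7% under salt, 80% under low pH and 77.3% under flood, with medians of -1.84, -2.97 and -2.18. Of the targets that passed, 12 of 16 were negative under salt, 14 of 16 under low pH and 15 of 17 under flood. The low pH value of SlIDD3 rests on the first plate's ubiquitin: it was -1.35 (adjusted p = 0.108) with both plates and 1.06 (adjusted p = 0.0552) with the second plate.

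Stressed roots can be compared with stressed shoots without any control well. Under salt SlIDD3 was higher in roots, by 1.97 log2 units at 2 h (standard error 0.50, adjusted p = 0.0161) and 1.15 at 24 h (standard error 0.31, adjusted p = 0.00338). SlIDD15 under salt was lower in roots, by -1.12 at 2 h (standard error 0.33, adjusted p = 0.0161) and -1.35 at 24 h (standard error 0.36, adjusted p = 0.00320). The 2 genes thus differed from each other in direction under salt without reference to the controls, where 54.5% of targets passed at 2 h and 59.1% at 24 h. The SlIDD15 values shrank to -0.16 and -0.27 in plain Ct, with adjusted p = 0.691 and 0.419. At 2 h SlIDD3 kept its call in 3 of 4 fits with a well row left out (1.69 to 2.27) and SlIDD15 in 2 of 4 (-1.34 to -0.83).

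Under flood at 2 h the tissue difference of SlIDD3 was 0.01 (95% interval -0.52 to 0.54) and SlIDD15 was -0.76 (95% interval -1.46 to -0.06, adjusted p = 0.0520), where 63.6% of targets passed. At 24 h SlIDD3 stood at 0.75 (standard error 0.22, adjusted p = 0.0142) and SlIDD15 at -0.98 (standard error 0.31, adjusted p = 0.0134), where 68.2% passed. Both of these calls were lost with ubiquitin of both plates (0.22 and -0.46), and SlIDD3 passed in only 1 of 4 fits with a well row left out (0.56 to 0.92) and stood at -0.31 with the second plate's ubiquitin. SlIDD15 stood at 0.072 with that of the first plate. With the well row as a block the SlIDD3 value at 24 h was 0.50 (adjusted p = 0.251) and the SlIDD15 value at 2 h passed (adjusted p = 0.0102). Under low pH at 2 h neither gene passed, with -0.07 for SlIDD3 and 0.76 for SlIDD15 (40% of targets passed). At 24 h SlIDD3 was 9.08-fold lower in roots (-3.18 with SE 0.29, adjusted p = 2.10e-08) and SlIDD15 stood at 0.01 (95% interval -0.58 to 0.60), where 55% passed. With the other plate's ubiquitin these were -2.15 for SlIDD3 and -1.03 for SlIDD15 (adjusted p = 0.000707).

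In unstressed plants at 2 h the genes also stood opposite. SlIDD3 was 3.87-fold lower in control roots than in control shoots (log2 difference -1.95 with SE 0.56, adjusted p = 0.00487) and SlIDD15 12.4-fold higher (3.63 with SE 0.76, adjusted p = 0.000912), rank 1 of 22, where 50% passed. The SlIDD15 call was lost with the well row as a block (3.04, adjusted p = 0.189). At 24 h SlIDD15 was 3.69-fold higher in control roots (1.88 with SE 0.30, adjusted p = 2.33e-05, and 5.17 with ubiquitin of the first plate), where 68.2% passed, and SlIDD3 did not differ past the threshold (0.09, 95% interval -0.64 to 0.81). The SlIDD3 value at 24 h was -3.20 (adjusted p = 1.41e-07) with ubiquitin of the second plate, which ran at 16.03 cycles in control roots and 16.05 in control shoots, against 17.71 and 14.45 on the first plate.

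**Figure D3:**
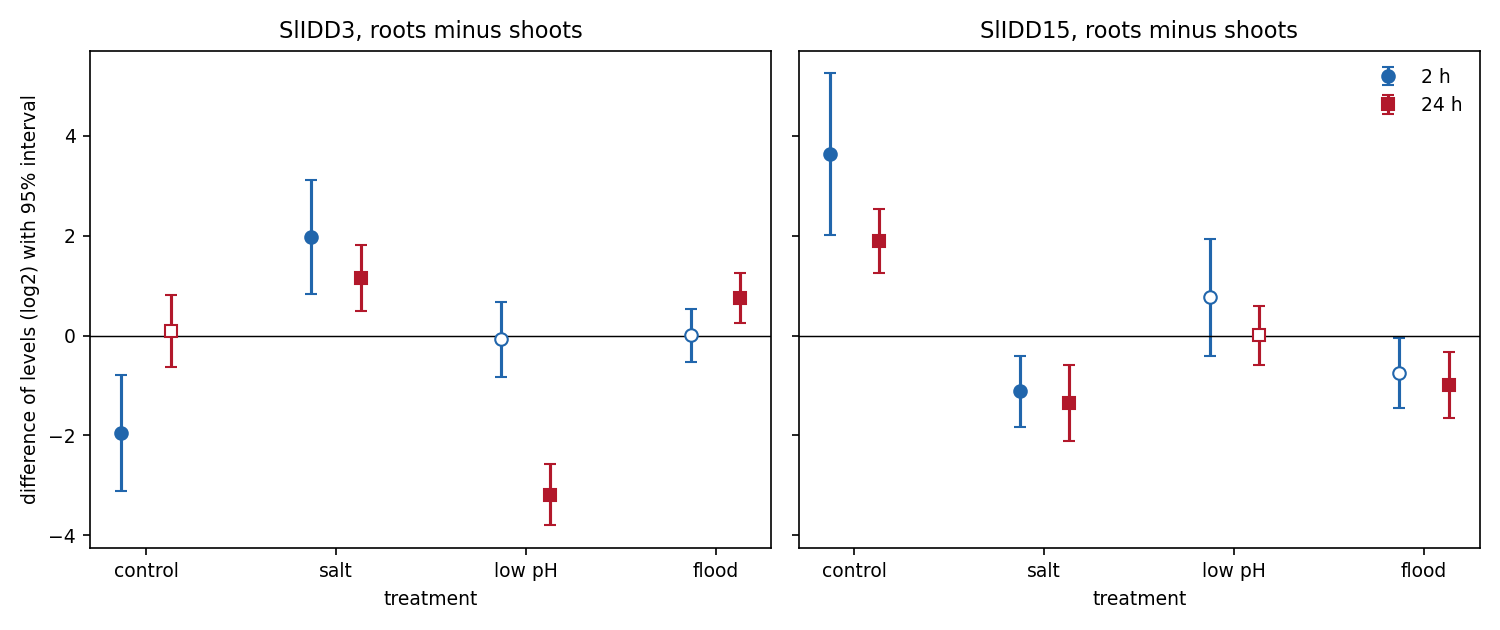
Level in roots minus level in shoots (log2, with 95% interval) within each treatment, for SlIDD3 (left) and SlIDD15 (right); blue circles are 2 h, red squares 24 h, and filled symbols passed an adjusted p of 0.05. In control plants at 2 h SlIDD3 lies below 0 and SlIDD15 above it, and under salt the signs are exchanged.

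The stressed wells of one tissue often lay closer to the control of the other tissue than to their own. In mean Ct this held for SlIDD3 in 6 of 6 stressed root groups and in 2 of 6 stressed shoot groups, both of them salt. Salt shoots at 2 h had a mean Ct of 23.50 against 20.63 in control shoots and 23.44 in control roots. Salt roots at 2 h had 20.80 against 23.44 in control roots and 20.63 in control shoots. For SlIDD15 it held in 6 of 6 stressed shoot groups and 0 of 6 stressed root groups. Relative to ubiquitin, SlIDD15 in stressed shoots was 0.04 to 1.61 above control roots, compared with 1.92 to 4.52 above control shoots. Whether the control plates of the tissues were exchanged was not tested and cannot be told apart from a response by these wells, since every fold change of a tissue at one time rests on the same control wells.

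The stresses were also set against each other within a tissue, which uses no control well. An exact two-sided permutation test of the levels was run for 12 pairs per gene, with ubiquitin held at its group mean. After Benjamini-Hochberg adjustment 0 of 12 pairs passed for either gene, and 5 pairs of SlIDD3 and 3 of SlIDD15 had an unadjusted p of 0.0286, the smallest that 4 wells against 4 allow. With so few wells a pair could pass only if most of the 12 had so low a p. The count of 0 therefore does not weigh the differences. In shoots at 2 h SlIDD3 under salt lay at -2.48 from low pH and -2.45 from flood, with no overlap of wells, and low pH and flood differed by 0.03. In shoots at 24 h the salt group was -3.55 from low pH and -2.11 from flood, with no overlap of wells. The exact permutation p was 0.0571 for both, the smallest this test gave for 3 wells against 4. Low pH was 1.44 above flood there. In roots at 24 h flood was the highest group, with salt at -1.71 from it and low pH at -2.49.

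The differences between stresses were at most 1.57 in size for SlIDD15 and 3.55 for SlIDD3, and in roots at 2 h those of SlIDD15 reached 1.28 and those of SlIDD3 0.49. In shoots at 24 h salt was 1.57 above low pH and low pH -1.32 from flood, and salt and flood differed by 0.25 (exact permutation p = 0.343). In shoots at 2 h the 3 differences were 0.18 to 0.60 in size. In roots at 24 h they were 0.12 to 0.33, and at 2 h salt lay -1.28 from low pH. In plain Ct the low pH shoots of SlIDD15 were later than both other stresses at both times, with no overlap of wells.

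Between 2 h and 24 h the level of SlIDD3 went from -5.18 to -3.24 in low pH shoots, a difference of 1.94, and from -5.20 to -3.93 in flood roots, a difference of 1.27. It went the other way in control shoots (-1.54) and was 0.53 higher in flood shoots. In these 4 groups the wells of the 2 times did not overlap (exact permutation p = 0.0286, adjusted p = 0.0571 over 8 tests of the gene). At these well numbers none of the 8 SlIDD3 tests could pass, so this adjusted p does not weigh the differences. A SlIDD15 test could pass only if most of its 8 had so low a p. In plain Ct the control shoots of SlIDD3 differed by only 0.34 cycles between the times, while their first-plate ubiquitin went from 15.65 to 14.45. SlIDD15 had 2 of 8 tests at p = 0.0286 (exact permutation, adjusted p = 0.114): low pH roots at -1.16 and salt shoots at 0.57. Its control shoots moved by 1.59 (exact permutation p = 0.0571, the smallest this test gave for 4 wells against 3).

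Ubiquitin, the only reference, varied between groups. Its group means ran from 13.74 to 17.71 cycles on the first plate and from 14.54 to 17.49 on the second. Against control it changed by -3.97 to 1.96 cycles over the 24 combinations of plate and comparison. By an exact permutation test 6 of these had p = 0.0286, the smallest that 4 wells against 4 allow. After adjustment 0 passed, but with so few wells none of the 24 could have. That count therefore does not weigh the shifts. On the first plate, which carries SlIDD3, it came up earlier in all 6 stressed root groups and later in 5 of 6 stressed shoot groups. The 2 plates' changes differed by 0.04 to 0.59 cycles in salt and flood at 2 h over both tissues, by 3.36 and 3.88 in low pH roots, and by 2.00 in low pH shoots at 2 h. At 24 h they differed by 1.39 in salt roots, 1.68 in salt shoots, 1.56 in flood roots, 0.67 in flood shoots and 0.45 in low pH shoots. At 2 h under salt and flood the 2 sets of reference wells thus gave values within 0.59 log2 units of each other for both genes.

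**Figure D4:**
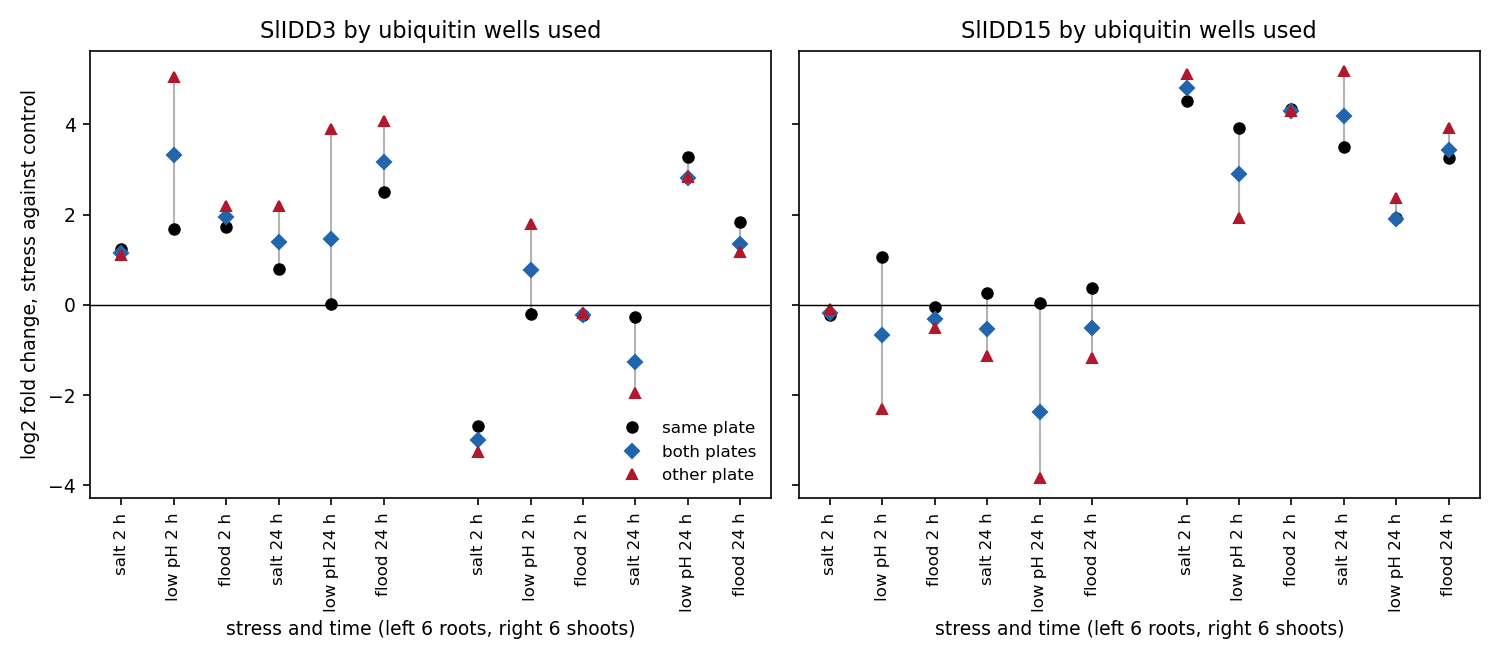
Log2 fold change against control for SlIDD3 (left) and SlIDD15 (right) computed with ubiquitin of the gene's own plate (black circles), both plates (blue diamonds) or the other plate (red triangles), for the 6 root and 6 shoot comparisons. The 3 values lie within 0.59 log2 units of each other for salt and flood at 2 h. They lie furthest apart in low pH roots, where SlIDD15 at 24 h runs from 0.05 to -3.83.

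Set against the mean of all targets on the gene's own plate, the pair stood on opposite sides of that mean in most comparisons. This scale uses no ubiquitin well but moves with the targets themselves. SlIDD3 passed above the mean in 6 of 6 root comparisons (0.99 to 2.85) and below it in 5 of 6 shoot comparisons (-2.44 to -0.79), with low pH shoots at 24 h at 0.16. SlIDD15 passed above the mean in 6 of 6 shoot comparisons (1.07 to 3.54) and below it in 6 of 6 root comparisons (-1.62 to -0.82). The difference between tissues then passed in 6 of 6 comparisons for either gene, positive for SlIDD3 and negative for SlIDD15. These are changes relative to the other targets, most of which rose in shoots at 24 h. A scale centred on the mean puts targets on both sides of it. The share of the other targets that passed on it was not counted, so these counts do not set the pair apart. Relative to ubiquitin SlIDD15 in roots ran from -0.23 to 1.05 and passed in 0 of 6 comparisons. Its place below the target mean therefore gives no direction for SlIDD15 in roots.

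The rest of the family moved as follows. In roots at 2 h, 5 of the other 17 SlIDD genes (with SlIDD-like1) rose and 2 fell under salt, 7 rose and 4 fell under low pH, and 5 rose and 1 fell under flood. In shoots at 2 h, 3 rose and 2 fell under salt, 6 rose and 1 fell under low pH, and 10 rose and 1 fell under flood, with medians of 0.37, 0.54 and 1.43. With each gene set against ubiquitin of its own plate, SlIDD15 stood 2.92 to 4.15 log2 units above those medians. At 24 h in shoots 15 rose and 2 fell under salt, 15 rose and 1 fell under low pH, and 16 rose and 1 fell under flood. In roots at 24 h the counts were 5 up and 6 down under salt, 4 up and 8 down under low pH, and 4 up and 2 down under flood.

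Likeness of pattern was measured as the Pearson correlation of group mean levels over the 16 groups, which share plates, ubiquitin wells and controls. For SlIDD3 the most alike were SlIDD9 (r = 0.85), SlIDD8 (r = 0.65) and CRF5 (r = 0.56 over 14 groups). The paper describes SlIDD9 as a close homolog of AtSTOP1, an Arabidopsis factor involved in proton toxicity. Under salt at 2 h SlIDD9 had a log2 fold change of 2.19 in roots (adjusted p = 0.000242) and -5.66 in shoots (adjusted p = 0.0344), a difference between tissues of 7.86 (adjusted p = 0.000259). SlIDD8 stood at 1.19 in salt roots (adjusted p = 0.0114) and 0.29 in salt shoots (adjusted p = 0.841), and its difference between tissues did not pass (0.90, adjusted p = 0.448). For SlIDD15 the most alike were SlIDD18 (r = 0.84) and SlIDD17 (r = 0.73), both on its own plate, and SlIDD11 (r = 0.62) on the other. Each of these 3 rose in 6 of 6 shoot comparisons. They were picked for likeness to SlIDD15 in these same groups, so shared rises follow in part from the choice. Among all targets 18 of 22 rose in shoots at 24 h under salt, 17 of 20 under low pH and 20 of 22 under flood. The rises at 24 h thus set none of the 3 apart. At 2 h in shoots 4 of 22, 7 of 20 and 13 of 22 targets rose in the same order. In roots SlIDD18 and SlIDD17 rose in 4 of 6 comparisons, SlIDD11 fell in 3 of 6, and SlIDD15 passed in 0 of 6. Of the 22 targets 6 to 10 rose and 2 to 8 fell in a root comparison. The correlation between SlIDD3 and SlIDD15 themselves was -0.08.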

How the data were processed

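The authors deposited a Ct in PCR cycles for each well, with no normalization, from SYBR Green reactions analysed in CFX Maestro. The other sheets hold the authors' relative quantities and fold changes by the 2^-ddCt method against ubiquitin, and these were not used. Treatment and tissue follow sample titles and source names, with which some characteristics fields disagree. The labels tie each time to a plate. Here the upper 4 well rows of both plates were taken as 2 h and the lower 4 as 24 h, and gene positions were matched to the folds in the study's tables, within 0.05 log2 in 10 of 12 comparisons for either gene (at most 1 for any other gene). This match was made after seeing the data and is no independent evidence. The 48 wells whose names do not give a place were left out (43 with a value), which left 1382.

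The lmFit and eBayes functions of limma 3.58.1 (R 4.3.3) were run for each comparison on Ct per well, with ubiquitin of each plate as a further row. The log2 fold change is the change of ubiquitin Ct minus that of the gene. Its variance is the sum of both, with Satterthwaite degrees of freedom. Two-sided p values were corrected by Benjamini-Hochberg among the targets of a comparison and called at 0.05. Single contrasts used exact permutation tests (scipy 1.17.1). The fit was tested on simulated data. Other software was Python 3.11.15, numpy 2.4.6, pandas 2.3.3 and matplotlib 3.10.9. Named besides the 2 genes are, for each, the 3 targets with the highest correlation of group mean level, and the other SlIDD genes by counts. The genes, lists and tests were chosen with earlier results of these data known. Alternatives were other reference wells, the mean of all targets, no reference, a block for well row, each row left out, irregular wells kept, adjustment over all comparisons and one fit over all groups.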

Additional observations from a re-analysis of the deposited data

Results flagged for a closer look

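In 3 of 25 groups of 4 wells of the pair, 1 well stood far from the other 3 in Ct, a gap that chance alone gives in about 1 group in 20. In low pH shoots at 2 h the latest SlIDD15 well had a Ct of 22.46, and its gap to the next well was 0.93 of the range of the group. In salt shoots at 2 h the latest SlIDD15 well had 20.04 (0.92 of the range), and in control roots at 2 h the latest SlIDD3 well had 24.17 (0.87 of the range).

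The response to stress differed between roots and shoots, by a limma test of the difference itself, in 11 of the 12 cases of gene, stress and time. Such a difference was common among all targets. The shares that passed at 2 h were 40.9% under salt, 40% under low pH and 63.6% under flood. At 24 h they were 72.7%, 80% and 77.3% in the same order. For SlIDD15 the response in roots minus that in shoots was -4.75 under salt, -2.87 under low pH and -4.39 under flood at 2 h, and -3.23, -1.88 and -2.87 at 24 h. For SlIDD3 it was 3.93 under salt, 1.88 under low pH and 1.96 under flood at 2 h, and 1.06 under salt and -3.27 under low pH at 24 h. All of these share the control wells of their time. The low pH value of SlIDD3 at 24 h changed sign with other reference wells (1.06 with ubiquitin of the second plate).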

How the results depend on the processing

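Adjusting over all comparisons of a kind, or leaving out irregular wells on the first plate only, changed no call of the 52 limma results. The choice of reference wells mattered most, and the cause of the plates' disagreement was not tested. Up to 4 wells of unknown plants per group limit what can be detected. In the values below, tissue difference means roots minus shoots within a treatment, and response difference means the stress response in roots minus that in shoots, in log2 units.

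With ubiquitin of both plates SlIDD3 changed to -1.26 in salt shoots at 24 h, -1.60 for the control tissue difference at 24 h (a change of sign), 0.22 for the flood tissue difference at 24 h, and response differences of 1.82 (flood) and -1.35 (low pH) at 24 h. SlIDD15 changed to -2.38 in low pH roots at 24 h and -0.46 for the flood tissue difference at 24 h. With ubiquitin of the other plate, an alternative chosen after seeing the data, SlIDD3 gave 3.89 in low pH roots at 24 h, 1.80 in low pH shoots at 2 h, -1.95 in salt shoots at 24 h, tissue differences at 24 h of -3.20 (control) and -0.31 (flood), and response differences at 24 h of 2.89 (flood) and 1.06 (low pH). SlIDD15 gave -2.31 in low pH roots at 2 h, then -1.13, -3.83 and -1.18 in salt, low pH and flood roots at 24 h, and tissue differences at 24 h of 0.072 (flood) and -1.03 (low pH).

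Against the mean of all targets SlIDD3 gave 1.46 in low pH roots at 24 h, -0.96 and -1.71 in low pH and flood shoots at 2 h, and -1.75, 0.16 and -0.79 in salt, low pH and flood shoots at 24 h. Its tissue differences were 1.11 (salt, 2 h), 0.75 (flood, 2 h) and -2.42 (control, 24 h), and its response differences at 24 h 3.65 (flood) and 1.30 (low pH). SlIDD15 gave -1.51, -1.62 and -1.37 in salt, low pH and flood roots at 2 h, -1.27, -1.03 and -0.82 at 24 h, and -0.25 for the flood tissue difference at 24 h.

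With no reference gene SlIDD3 gave 3.98 in low pH roots and -2.23 in salt shoots at 24 h, tissue differences of 0.58 (flood, 2 h) and -3.18 (control, 24 h), and response differences at 24 h of 3.78 (flood) and 1.93 (low pH). SlIDD15 gave 1.31 in salt roots at 2 h, 1.04 in salt and 1.19 in flood roots at 24 h, and tissue differences of -0.16 and -0.27 (salt, 2 h and 24 h), 0.90 (low pH, 24 h) and -0.079 (flood, 24 h). In the exact permutation tests between stresses 14 pairs then changed, all to an adjusted p of 0.0490 (a setting chosen after seeing the data). For SlIDD3 these were low pH against flood at -0.89, salt against flood at -1.91 and salt against low pH at -1.02 in roots at 24 h, low pH against flood at 0.79, salt against flood at -2.58 and salt against low pH at -3.37 in shoots at 2 h, and low pH against flood at 0.96 in shoots at 24 h. For SlIDD15 these were low pH against flood at -1.19 and salt against low pH at 1.66 in roots at 2 h, low pH against flood at -1.05 in roots at 24 h, and in shoots low pH against flood at -1.61 (2 h) and -2.03 (24 h) and salt against low pH at 2.30 (2 h) and 2.08 (24 h).

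One fit over all groups ended the calls of SlIDD3 in salt roots at 24 h (0.80), its salt response difference (1.06) and flood tissue difference (0.75) at 24 h, and of SlIDD15 the flood tissue difference at 24 h (-0.98), and made that of SlIDD15 in low pH roots at 2 h (1.05). Irregular wells in plate order ended the SlIDD3 calls in salt roots (0.80) and for the salt response difference (1.06) at 24 h.

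The sample numbers in the labels mark plates that carry different genes, so they pair nothing. The well row was used as a replicate block instead, although rows share only a position: over 95 pairs of control and stressed rows the deviations correlated with a median r of 0.00, and 39 pairs were above 0.1. With the block the SlIDD3 calls in low pH roots at 2 h (1.70), salt roots at 24 h (0.91), the flood tissue difference at 24 h (0.50) and the salt response difference at 24 h (0.88) were lost, as was the control tissue difference of SlIDD15 at 2 h (3.04), and its flood tissue difference at 2 h passed (-0.76). The block changed no other call.

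Leaving out each row in turn, SlIDD3 ranged from 1.04 to 1.41 in salt roots at 2 h, 0.57 to 0.91 in salt roots at 24 h and 1.43 to 1.86 in low pH roots at 2 h. Its response differences ranged from 1.73 to 2.12 (low pH, 2 h), 0.79 to 1.57 (salt, 24 h) and 0.25 to 1.18 (flood, 24 h), and its tissue differences from 1.69 to 2.27 (salt, 2 h) and 0.56 to 0.92 (flood, 24 h). SlIDD15 ranged from -2.96 to -2.77 for the low pH response difference at 2 h, and its tissue differences from -1.34 to -0.83 (salt, 2 h), -0.87 to -0.56 (flood, 2 h) and -1.08 to -0.91 (flood, 24 h). The other results kept their side of the threshold in these 4 fits.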
